A study of Callithrix jacchus with 3 samples.

Results

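Small RNAs of 26, 27 and 28 nt from marmoset testis (Callithrix jacchus, a small monkey of South America) were compared between RNA recovered with the PIWI protein MARWI and total testis small RNA. All sequences of these lengths were taken from both deposited tables. They were 2006735 of 6912324 distinct sequences in the MARWI immunoprecipitate (MARWI-IP), with 21296744 reads, and 886706 of 2668455 in total small RNA, with 2994884 reads. Together the tables held 2579146 different sequences of these lengths. All animals were labelled wild type. MARWI-IP came from adult testes labelled with ages of 41 and 51 months, described as 2 replicates but deposited as 1 column, and total small RNA came from testis labelled with 1 age, 41 months. No value therefore has an error between animals, and no test between the libraries was possible. Age, animal and gel purification, which the labels give for total small RNA, cannot be told apart from the immunoprecipitation itself, and RNA bound by MARWI cannot be told apart from background, because no control precipitate is among the samples.

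PIWI proteins of the germline bind piRNAs, small RNAs that mostly begin with uridine (U) and direct silencing of transposons and other transcripts. MARWI is the marmoset counterpart of mouse MIWI (PIWIL1), a PIWI protein of meiotic and later male germ cells. In mouse, MIWI carries longer piRNAs than MILI, another PIWI protein of the testis. The 3′ end of a piRNA is made by shortening a longer precursor, in mouse by the exonuclease PNLDC1, and is then methylated by HENMT1, so that 1 start can be read at several lengths.

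The most abundant sequences introduce both libraries. They are written as deposited, 5′ to 3′, with T for U and the first base in capitals. The first 5 were among the leading 10 of MARWI-IP, and the last 4 among the leading 10 of total small RNA but not of MARWI-IP. The sequences named MARWI-IP leader B and leader in both were among the leading 10 of both libraries.
MARWI-IP leader A: Ttgatggtaattggaagagcatcttggg
MARWI-IP leader B: Ttagattgtaaaaatgtgtgcacaacca
MARWI-IP leader C: Taggaactagtcttgatgccttctgtct
MARWI-IP leader D: Tcccacatggtctagcggttaggattcc
leader in both: Ttccatctcactgactgactgtgtcttc
total leader A: Tgagctggagctatttggactagtatc
total leader B: Tctgacgttgtcggcggaaggctgccca
total leader C: Acgggtgatgagaactggagtctgagc
total leader D: Tttccacgtttatgctcactcctctgg

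The sequence Ttgatggtaattggaagagcatcttggg had 149281 MARWI-IP reads and 1774 total reads, 0.701% of the 26 to 28 nt reads of MARWI-IP and 11.8 times its share in total small RNA (95% interval 11.3 to 12.4). Ttagattgtaaaaatgtgtgcacaacca was high in both, with 101030 MARWI-IP and 9827 total reads, a ratio of 1.45. Taggaactagtcttgatgccttctgtct had 96949 MARWI-IP and 4264 total reads, a ratio of 3.20. Tcccacatggtctagcggttaggattcc has the letters known as the 5′ end of human tRNA-Glu-TTC, and its 84401 MARWI-IP and 2291 total reads gave a ratio of 5.18. The most abundant sequence of total small RNA, Ttccatctcactgactgactgtgtcttc, had 64589 MARWI-IP and 14930 total reads, a ratio of 0.608. The leading lists thus overlapped in part, with 4 of 10 sequences in common.

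Sequences low in MARWI-IP stood high in the total list. Tgagctggagctatttggactagtatc had 1216 MARWI-IP and 11780 total reads, a share 68.9-fold lower in MARWI-IP. Acgggtgatgagaactggagtctgagc had 303 and 7357 reads in MARWI-IP and total small RNA, 173-fold lower, and Tttccacgtttatgctcactcctctgg had 341 and 7263 reads in MARWI-IP and total small RNA, 151-fold lower. Tctgacgttgtcggcggaaggctgccca had 5169 MARWI-IP and 7785 total reads, a share 10.7-fold lower. Of the leading 10, 5 in MARWI-IP were at 4 times their total share or more, and 5 in total small RNA were 4-fold or more lower in MARWI-IP. All 10 MARWI-IP leaders began with U, as did 9 of the 10 total leaders. The 95% intervals are exact, come from read counts and take in no error but that of counting, and reads need not be separate molecules.

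Short piRNA-like lengths made up a smaller part of MARWI-IP than of total small RNA. Reads of 26 to 28 nt were 19.3% of the 24 to 33 nt reads of MARWI-IP and 23.4% of those of total small RNA, against 65.8% and 54.2% for 29 and 30 nt in MARWI-IP and total small RNA. Each library thus held 3.41 (MARWI-IP) and 2.32 (total) reads of 29 and 30 nt for each read of 26 to 28 nt. Within 26 to 28 nt, MARWI-IP leaned to the longest length. Its reads were 15.3% of 26 nt, 24.2% of 27 nt and 60.5% of 28 nt, and those of total small RNA were 16.9%, 28.8% and 54.3%. In bulk tissue, fewer cells of a type and less RNA per cell cannot be told apart behind any of these shares.

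Bases by position were compared next, because a first U marks piRNAs and an A at position 10 marks those made by ping-pong, the reciprocal cleavage of complementary transcripts. The largest differences lay at position 5, not at position 1. G at position 5 was in 11.9% of MARWI-IP and 17.9% of total reads, a difference of -6.05 percentage points, and A at position 5 was in 44.2% and 39.3% of MARWI-IP and total reads, 4.89 points higher. U came first in 89.0% of MARWI-IP reads and 85.1% of total reads, 3.86 points higher. With each distinct sequence counted once the order was the opposite, at 70.3% of MARWI-IP and 75.7% of total sequences. In MARWI-IP, U came first in 67.7% of sequences read once and 93.4% of the 2397 with over 1000 reads. In total small RNA it came first in 73.6% of sequences read once and 89.2% of the 157 with over 1000 reads. The highest value there was 90.5%, at 11 to 100 reads. These are raw read numbers, so groups of the same name do not match at the unequal depths. Distinct sequences were not compared at equal depth for this base. G at position 2 differed by -4.16 points (23.3% of MARWI-IP and 27.5% of total reads), and C at position 7 by -4.10 points (15.5% of MARWI-IP and 19.6% of total reads). Of the 96 base and position pairs outside positions 1 and 5, 93 differed by under 3 points. The differences at positions 1 and 5 were not particular to these lengths. In reads of 29 and 30 nt, G was at position 5 in 9.73% of MARWI-IP and 15.1% of total reads. A was at position 5 in 44.5% of these MARWI-IP and 38.7% of these total reads, and U came first in 90.9% and 87.8%.

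**Figure D1:**
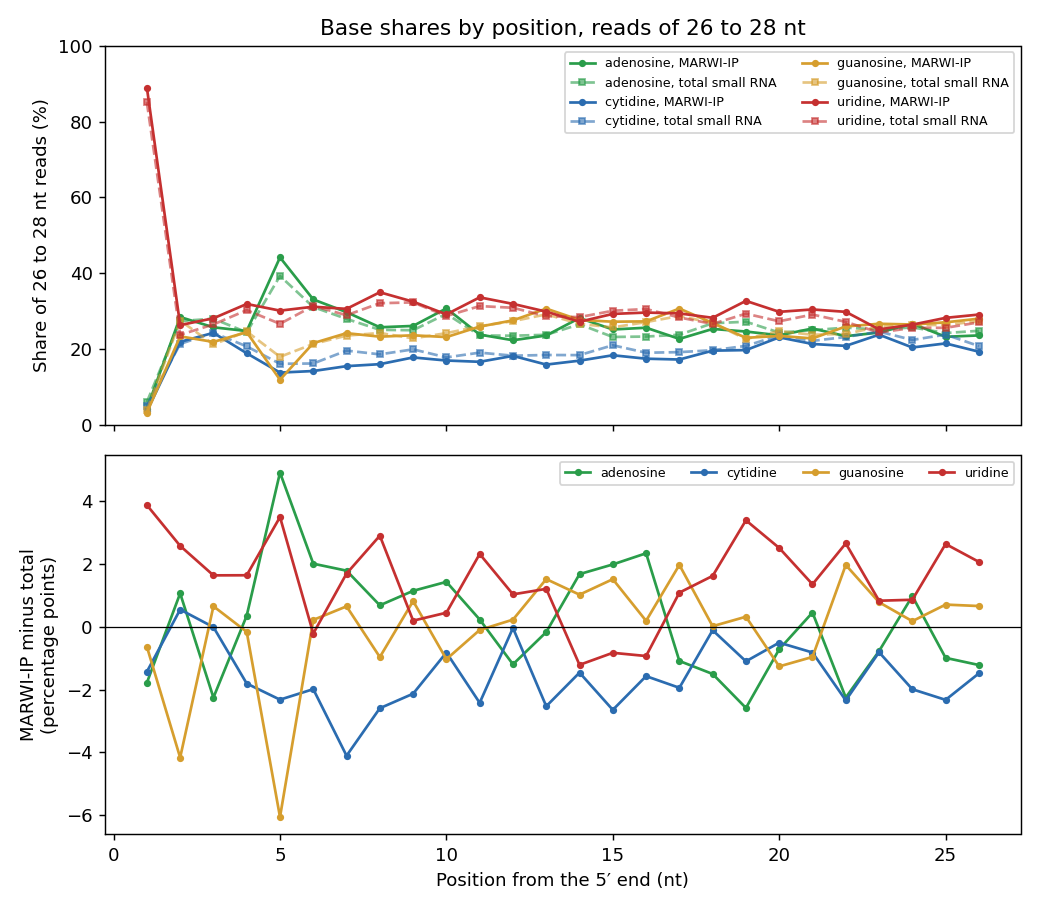
Share of each base at positions 1 to 26 from the 5′ end in reads of 26 to 28 nt (top, solid for MARWI-IP, dashed for total small RNA) and the difference in percentage points (bottom). The lowest point is guanosine at position 5, at -6.05 points, and the highest is adenosine at the same position, at 4.89 points.

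C was the scarcest base inside these reads, and scarcer in MARWI-IP. Over positions 2 to 26, C averaged 18.8% in MARWI-IP, against 20.4% in total small RNA, and U averaged 29.8% and 28.4% in MARWI-IP and total small RNA. An A at position 10 was in 30.7% of MARWI-IP and 29.3% of total reads, but in 30.3% of MARWI-IP and 30.8% of total sequences when each was counted once. Reads without a first U carried it more often than reads with one, 36.9% against 29.96% in MARWI-IP, and 40.5% against 27.3% in total small RNA. The gap between these kinds of read was thus narrower in MARWI-IP. It was widest at 28 nt in both, where A at position 10 was in 37.99% of MARWI-IP and 42.6% of total reads without a first U.

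The last base differed more than position 10 did. C was last in 25.7% of MARWI-IP and 29.8% of total reads, and G in 26.5% of MARWI-IP and 23.2% of total reads, while A (22.0% in MARWI-IP, 21.0% in total) and U (25.8% in MARWI-IP, 25.98% in total) were near equal. The gap in last C widened with length, with 26.5% in MARWI-IP and 28.3% in total at 26 nt, 28.7% and 31.8% in MARWI-IP and total at 27 nt, and 24.3% and 29.3% in MARWI-IP and total at 28 nt. The base before the last was G in 33.7% of MARWI-IP and 33.5% of total reads and A in 16.1% and 16.0% of MARWI-IP and total reads. C stood there in 19.5% of MARWI-IP and 21.1% of total reads, a difference of -1.63 points, and U in 30.7% of MARWI-IP and 29.5% of total reads, 1.27 points higher. Reads of 29 and 30 nt also had fewer last C in MARWI-IP (28.7%, against 32.5% in total) but more last U (31.1%, against 27.2% in total), a difference that 26 to 28 nt reads did not show.

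Reads of 26 to 28 nt were then divided by whether they could be shortened copies of a longer RNA. A sequence was called a shortened form where a 29 or 30 nt sequence of the same table began with it and had more reads. It was said to have a minority parent where such longer sequences existed but none had more reads, and an own 5′ end where no 29 or 30 nt sequence of that table began with it. Shortened forms made up 66.9% of MARWI-IP reads and 43.8% of total reads. Sequences with a minority parent held 27.9% of MARWI-IP and 34.5% of total reads, and own 5′ ends held 5.18% of MARWI-IP and 21.7% of total reads. The gap in shortened forms was widest at 26 nt, where they were 83.3% of MARWI-IP and 49.8% of total reads, and narrowest at 28 nt, at 58.4% of MARWI-IP and 41.2% of total reads.

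This division depends on depth and on how many 29 and 30 nt reads a library holds. With MARWI-IP thinned at random to the 12792323 reads that total small RNA held between 24 and 33 nt, shortened forms were 62.7% of its reads and own 5′ ends 9.93%. When MARWI-IP was thinned to the total table's read number in both length classes separately, shortened forms were 55.3%, minority parents 34.2% and own 5′ ends 10.6% of its reads. The difference in shortened forms was then 11.5 points in place of 23.1, and minority parents were near the 34.5% of total small RNA. Own 5′ ends stayed below the 21.7% of total small RNA in both thinned versions.

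**Figure D2:**
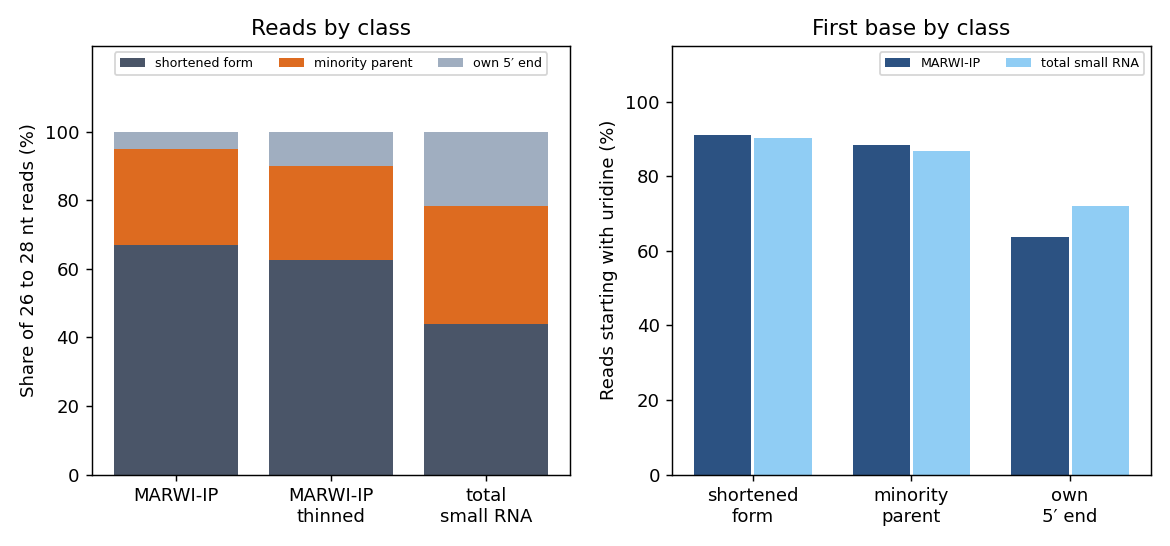
Left, share of 26 to 28 nt reads in shortened forms, sequences with a minority parent and own 5′ ends, for MARWI-IP, MARWI-IP thinned to 12792323 reads and total small RNA. Right, share of reads that start with uridine in each class. Shortened forms are 66.9% of MARWI-IP and 43.8% of total reads, and own 5′ ends start with uridine least often.

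Leading shortened forms are shown with their parents, to let the missing 3′ bases be seen, and the last of them was chosen after its values were seen. Each line is the 29 or 30 nt parent, with the bases absent from the shorter form in capitals.
parent of MARWI-IP leader A: ttgatggtaattggaagagcatcttgggT
its 26 nt form: ttgatggtaattggaagagcatcttgGGT
parent of MARWI-IP leader B: ttagattgtaaaaatgtgtgcacaaccaTG
its 27 nt form: ttagattgtaaaaatgtgtgcacaaccATG
parent of the tRNA-Glu-TTC form: tcccacatggtctagcggttaggattccT
a further shared form: tggaatatggtcttgagatgtctgtacaAG
a tRNA-Gly-GCC form: gcattggtggttcagtggtagaattctcGC

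The proportion of form to parent was near equal in both libraries for some of these RNAs and not for others. The 28 nt form of ttgatggtaattggaagagcatcttgggT was 20.5% of its parent's 729827 reads in MARWI-IP and 20.4% of the parent's 8716 reads in total small RNA. For ttagattgtaaaaatgtgtgcacaaccaTG the form was 9.42% of 1072903 parent reads in MARWI-IP and 12.7% of 77470 in total small RNA, and for tggaatatggtcttgagatgtctgtacaAG it was 22.1% of 359560 and 25.7% of 26790 parent reads in MARWI-IP and total small RNA. The form of gcattggtggttcagtggtagaattctcGC, which has the letters known as the 5′ part of human tRNA-Gly-GCC, went the other way, at 47.9% of 6585 parent reads in MARWI-IP and 15.0% of 35630 in total small RNA. The tRNA-Glu-TTC form was 3.88% of its parent's reads in MARWI-IP, against 5.05% in total. Larger gaps in this direction were seen for leading forms not listed above. For tcattcatggactggagatctgagcatgT the form was 59.3% of its parent's reads in MARWI-IP, against 96.5% in total. For tctcgtctgatctcggaagctaagcaggG it was 57.5% in MARWI-IP, against 83.5% in total. The 26 nt form of MARWI-IP leader A was higher in MARWI-IP, at 7.86%, against 6.76% in total. Among the leading 10 sequences of each library, 7 were shortened forms in MARWI-IP, against 3 in total small RNA.

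First bases differed by class more than by library. U came first in 91.2% of MARWI-IP and 90.2% of total reads of shortened forms, and in 88.3% and 86.9% of MARWI-IP and total reads with a minority parent. Among own 5′ ends it was first in 63.8% of MARWI-IP and 72.1% of total reads, the opposite order. With its classes weighted as in MARWI-IP, total small RNA would have 88.3% first U, which leaves 0.65 of the 3.86 points. With the class weights of the thinned MARWI-IP it would have 87.5%, which leaves 1.49 points. Weights matched in both length classes were not used, and own 5′ ends were mostly sequences read once, so this weighting is a description only. The difference at position 5 was reduced less, to -5.00 of -6.05 points, or -5.22 with the thinned weights, since G at position 5 in total small RNA would be 16.9% at that mix, against 11.9% in MARWI-IP. Last C would be 28.7%, against 25.7% in MARWI-IP. Within shortened forms alone, G at position 5 was in 10.5% of MARWI-IP and 15.7% of total reads.

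Own 5′ ends were for the most part rare sequences, as the definition favours. A single read of 29 or 30 nt that begins with a sequence takes it out of this class. Total leader C, with 7357 total reads, had a best parent of 3 total reads and so counted as having a minority parent there. The rarity is therefore not a result about RNAs with a start of their own. They averaged 1.20 reads per sequence in MARWI-IP, against 1.14 in total small RNA, and 75.5% and 82.0% of their reads in MARWI-IP and total small RNA were of sequences read once. Some matched the inside of longer RNAs, since 27.7% of own-end reads of MARWI-IP and 16.9% of those of total small RNA lay within a 29 or 30 nt sequence of the same table that began 1 to 4 bases earlier. Of the reads so placed, 43.6% (MARWI-IP) and 52.2% (total) began with U, against 71.5% (MARWI-IP) and 76.1% (total) of the own-end reads not so placed. The most abundant own 5′ end of MARWI-IP was Aagtgaatagtagttttgactaagct, with 1300 MARWI-IP and 4 total reads. In total small RNA it was Aaaagtgatgtcatcttactactgaga, with 61 MARWI-IP and 2233 total reads.

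The base that follows the end of a shortened form can be read from its parent. This base was A in 38.2% of MARWI-IP and 36.3% of total reads of shortened forms, whereas A stood at the same positions in 19.2% and 20.9% of all 29 and 30 nt reads of MARWI-IP and total small RNA. C was the base least often found after the end, at 11.2% of MARWI-IP and 12.9% of total reads, against 23.2% and 23.5% at the same positions of all longer reads in MARWI-IP and total small RNA. A after the end was most frequent for 26 nt forms, at 46.6% of MARWI-IP and 47.7% of total reads, then 42.1% and 40.8% of MARWI-IP and total reads at 27 nt and 33.03% and 29.4% at 28 nt. Both libraries thus showed the same order by length. The values for all longer reads were taken over all form lengths together, so whether this order follows base composition by position was not tested.

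Each start was followed across its lengths to see whether a start kept its commonest length in both libraries. A 5′ end was defined as identical first 24 nt, with 100 or more reads between 24 and 33 nt. The commonest length was 26 to 28 nt for 8596 of 73042 ends in MARWI-IP (11.8%) and for 2171 of 15495 ends in total small RNA (14.0%). These short ends held 24.8% of the 26 to 28 nt reads of MARWI-IP and 23.6% of those of total small RNA. They began with U as reads of longer ends did, at 92.2% against 92.9% of reads in MARWI-IP and 91.3% against 93.0% in total small RNA. An A at position 10 was less frequent in them, at 24.8% of reads against 33.3% for ends of 29 and 30 nt in MARWI-IP and 25.3% against 32.5% in total small RNA. The lower share of A at position 10 in short ends was therefore seen in both libraries.

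Of 14262 ends with 100 or more reads in each library, the share of an end's reads at 26 to 28 nt had a median of 16.0% in MARWI-IP, against 15.0% in total small RNA. This share was higher in MARWI-IP for 7595 ends (53.3%), and 10667 ends (74.8%) lay within 10 percentage points of equality. Of 1754 ends that were commonest at 26 to 28 nt in MARWI-IP, 1232 (70.2%) were so in total small RNA, and of 1917 that were so in total small RNA the same 1232 (64.3%) were so in MARWI-IP. The 615 ends that were 29 or 30 nt in MARWI-IP but 26 to 28 nt in total small RNA outnumbered the 446 that went the other way.

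**Figure D3:**
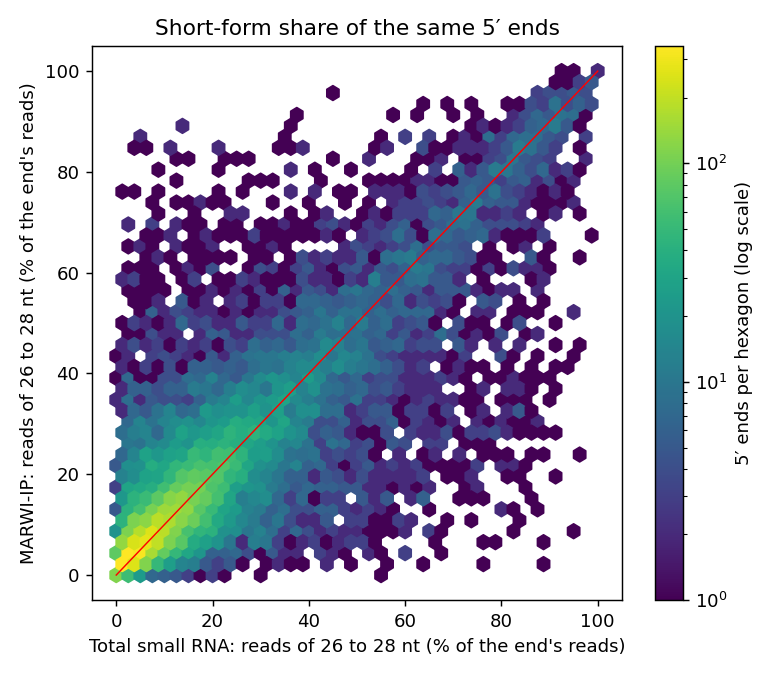
Share of each 5′ end's reads that are 26 to 28 nt long, in MARWI-IP (vertical) against total small RNA (horizontal), for 14262 ends with 100 or more reads in each; colour gives the number of ends per hexagon on a log scale and the line marks equal shares. Of these ends, 10667 lie within 10 percentage points of the line.

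Short ends of total small RNA were also less well represented in MARWI-IP as a whole. Their reads of all lengths had a median share in MARWI-IP of 0.681 times that in total small RNA, against 0.907 for the 10168 ends that were 29 or 30 nt in total small RNA. A share 4-fold or more lower in MARWI-IP was found for 425 of the 1917 short ends (22.2%) and for 1566 of the longer ends (15.4%), where 16.9% of all 14262 ends were this low. Ends that were short in both libraries had a median ratio of 0.818, and those that were short in total and 29 or 30 nt in MARWI-IP had one of 0.488. The ratio was as low, 0.457, for the 446 ends that were 29 or 30 nt in total and short in MARWI-IP. Since the ends were grouped by the same reads, these ratios describe the libraries and are not a test.

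The leading ends that kept a short commonest length are listed first, followed by ends that did not. In the second set the capitals mark the bases by which the commoner form of 1 library exceeds that of the other. The ends of the second set were chosen for this list after their values were seen.
short in both, 1: Ttccatctcactgactgactgtgtcttc
short in both, 2: Taggaactagtcttgatgccttctgtct
short in both, 3: Tgagctggagctatttggactagtatc
short in both, 4: Tctgacgttgtcggcggaaggctgccca
short in both, 5: Taccaccattttctagagactgggaaga
longer in MARWI-IP, 1: tagtgaataaggctcacaagatctcattGT
longer in MARWI-IP, 2: tgagaatctttgtttctgggtgattccAGA
shorter in MARWI-IP, 1: tccaactgctgtacgacacagagcccggC
shorter in MARWI-IP, 2: tactggaccatagaaccctttattcctGGT

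The end of Ttccatctcactgactgactgtgtcttc was read mostly at 1 length, with 64589 of 80380 MARWI-IP reads and 14930 of 19666 total reads at exactly 28 nt. Taggaactagtcttgatgccttctgtct had 96949 of 160266 MARWI-IP reads and 4264 of 7278 total reads at 28 nt, with 34331 and 1703 reads at 29 nt in MARWI-IP and total small RNA. The end of Tgagctggagctatttggactagtatc had 1216 of 2214 MARWI-IP reads and 11780 of 18873 total reads at 27 nt. Its whole end was low in MARWI-IP, at 0.0136 times its share in total small RNA. The end of Taccaccattttctagagactgggaaga was also low, with 3919 MARWI-IP and 14551 total reads of 24 to 33 nt, a ratio of 0.0313 on the same base.

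Other starts were read at different lengths in the libraries. The end of tagtgaataaggctcacaagatctcattGT had 24267 of 27626 MARWI-IP reads at 30 nt and 738 at 28 nt, whereas in total small RNA 5495 of 13037 reads were of 28 nt and 3450 of 30 nt. For tgagaatctttgtttctgggtgattccAGA, 17939 of 28153 MARWI-IP reads were of 30 nt and 3849 of 27 nt, against 1966 of 30 nt and 4410 of 27 nt among 8267 total reads. The opposite pattern was seen for tccaactgctgtacgacacagagcccggC, with 21804 of 60793 MARWI-IP reads at 28 nt, 9145 at 29 nt and 11106 at 30 nt. Among 37772 total reads of this end, 533 were of 28 nt, 23960 of 29 nt and 10517 of 30 nt. The end of tactggaccatagaaccctttattcctGGT had 10702 reads of 27 nt and 9964 of 30 nt in MARWI-IP and 522 and 916 in total small RNA. The last of these had both lengths in similar numbers in MARWI-IP. Near ties also occurred among other abundant ends that changed commonest length. The end of ttagataggaggcctgaattctggcagaA had 32683 reads of 29 nt and 30273 of 28 nt in MARWI-IP, against 1342 of 29 nt and 1362 of 28 nt in total small RNA.

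**Figure D4:**
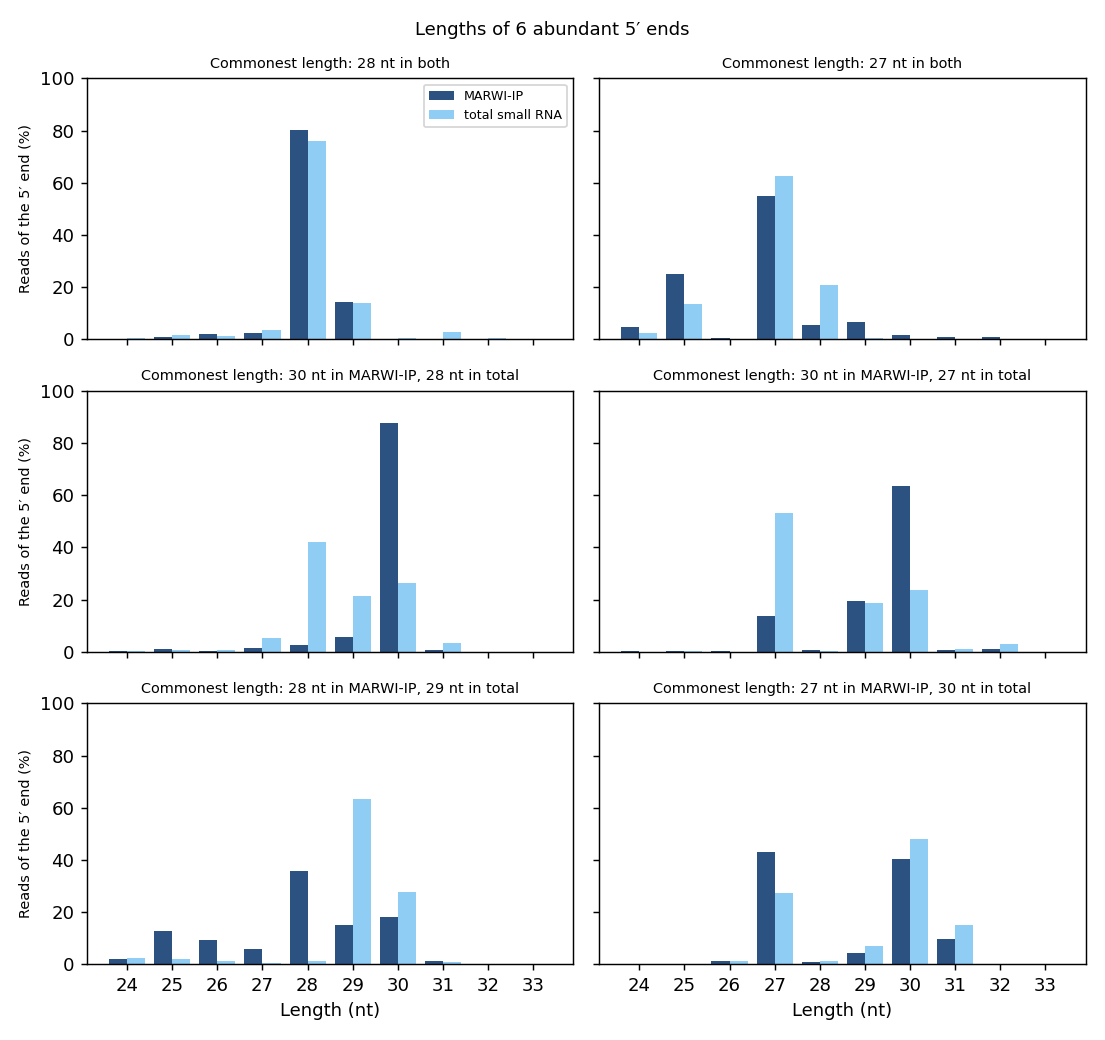
Reads of 6 abundant 5′ ends by length from 24 to 33 nt, as percent of the end's reads in MARWI-IP (dark) and total small RNA (light). The upper pair keeps 1 short commonest length in both libraries, the middle pair is longer in MARWI-IP (24267 of 27626 reads at 30 nt in the left panel), and the lower pair is shorter in MARWI-IP.

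Abundant sequences held a larger share of the 26 to 28 nt reads in MARWI-IP. More distinct sequences were read there only at its greater depth. Thinned MARWI-IP held 462449 distinct sequences in 2474907 reads of these lengths, against 886706 in 2994884 reads of total small RNA. The 10 most abundant sequences held 4.36% of MARWI-IP and 2.93% of total reads, the top 100 held 13.6% and 10.6% of MARWI-IP and total reads, and the top 1000 held 30.7% and 24.98%. To reach 50% of the reads took 5602 sequences in MARWI-IP, or 5533 after it was thinned, and 13990 in total small RNA. Sequences read once held 6.37% of MARWI-IP reads (12.8% thinned) and 23.3% of total reads. In both libraries reads of 29 and 30 nt were more concentrated, with 11.9% of MARWI-IP and 5.86% of total reads in 10 sequences.

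By reads, most of what was recovered was present in both libraries. The tables shared 314295 exact sequences of 26 to 28 nt, 15.7% of those of MARWI-IP and 35.4% of those of total small RNA. These held 84.8% of MARWI-IP and 78.4% of total reads of 26 to 28 nt, against 92.4% and 92.0% at 29 and 30 nt in MARWI-IP and total small RNA. After thinning of MARWI-IP the shares of reads were 84.8% in MARWI-IP, against 68.4% in total small RNA. Shared sequences began with U in 92.5% of MARWI-IP and 88.9% of total reads, and the remaining ones in 69.4% of MARWI-IP and 71.4% of total reads. Of the reads not shared, 39.7% (MARWI-IP) and 82.8% (total) were of sequences read once. Without sequences read once, the shared ones held 84.9% of MARWI-IP and 92.8% of total reads, the opposite order.

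Sequence by sequence, MARWI-IP and total small RNA differed in both directions. Among 8310 sequences with 20 or more reads per 1000000 reads of 26 to 28 nt in either library, 1503 (18.1%) had a share 4-fold or more higher in MARWI-IP and 1534 (18.5%) one 4-fold or more lower. With 1 column per library, a fold is not a test. Taken alone in the same way, sequences of 29 and 30 nt were this much higher in 8.74% and this much lower in 20.5% of cases. These shares depend on the reads they are set against. With filter and share both taken on the 24 to 33 nt reads, a comparison added after the data were seen, 11.8% of 1403 sequences of 26 to 28 nt were this much higher in MARWI-IP, against 12.9% of all lengths and 14.2% of 29 and 30 nt. On that scale 365 of the 1403 (26%) were this much lower, against 20.6% of all lengths and 16.6% of 29 and 30 nt. The median ratio of the 8310 was 1.74, and that of the 8539 sequences of 29 and 30 nt was 1.18.

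**Figure D5:**
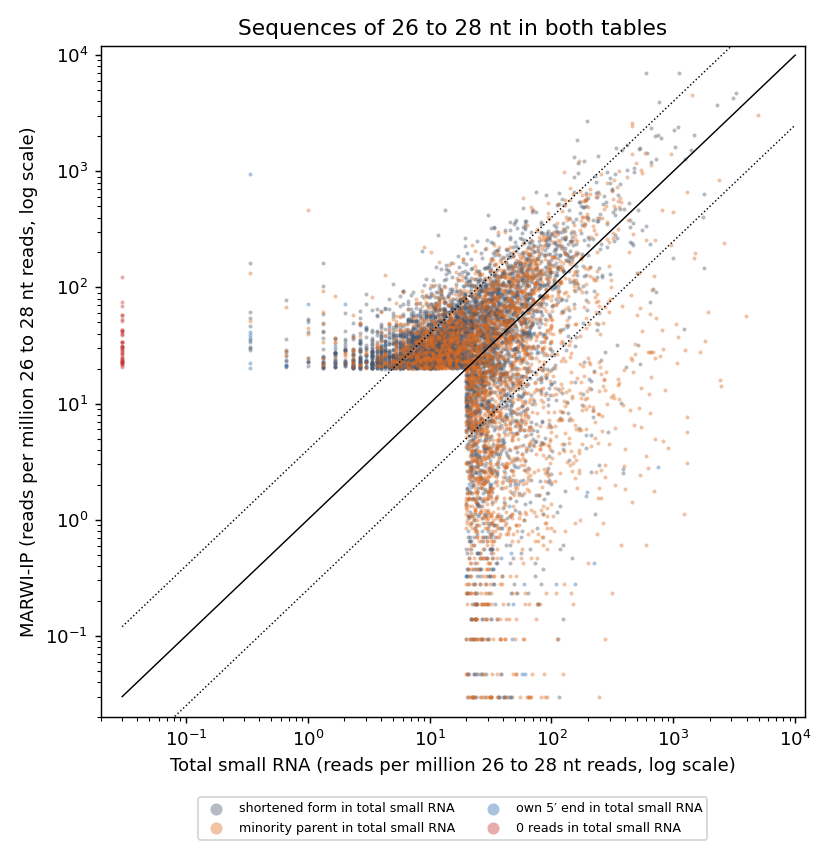
Reads per 1000000 reads of 26 to 28 nt for 8310 sequences in MARWI-IP (vertical) and total small RNA (horizontal), both on log scales, coloured by their class in total small RNA; the solid line marks equal shares, the dotted lines 4-fold, sequences with 0 reads in a library are drawn at the left or lower edge, and those under 20 in both are not shown. Points below the lower dotted line are mostly sequences with a minority parent.

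Sequences lower and higher in MARWI-IP differed from each other in several features. Of the 1534 lower ones, 83.1% began with U, as did 88.7% of the 1503 higher ones and 94.7% of those between. G was at position 5 in 21.1% of the lower, 9.25% of the higher and 14.0% of all 8310, and A in 34.2%, 44.4% and 42.9%. The last base was C in 31.7% of the lower, 23.0% of the higher and 26.2% of all. It was G in 23.8%, 32.7% and 27.3%, so for last G the higher ones lay further from all. The G and C content was 46.3% in the lower, 41.8% in the higher and 43.8% in all. In total small RNA, 926 of the lower ones (60.4%) had a minority parent, against 323 of the higher ones (21.5%) and 35.7% of all 8310. This class is set by the same total reads as the ratio and is not independent of it. By their class in MARWI-IP the groups were closer for this class, with a minority parent for 25.6% of the lower, 31.3% of the higher and 30.3% of all. Own 5′ ends in MARWI-IP were 4.63% of the lower, 0.200% of the higher and 0.915% of all. The class in MARWI-IP is set by the MARWI-IP reads, which also enter the ratio, so it is not independent of it either.

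The most extreme ratios are shown with their sequences, since these exact sequences were nearly absent from 1 table. All had 100 or more reads per 1000000 in the other.
higher in MARWI-IP, 1: Tagatacacaggattggagcttcccttc
higher in MARWI-IP, 2: Gattaaatgtcctgtcctctgagcaaat
higher in MARWI-IP, 3: Gatttctacgtctaactctgtcttctct
higher in MARWI-IP, 4: Tgatggtaattggaagagcatcttgggt
higher in MARWI-IP, 5: Gattactttctgatgtcagaactcaga
higher in MARWI-IP, 6: Tggatgatgtcttgaacctgttggaga
lower in MARWI-IP, 1: Gacaaagacgtgcccggcagacctgccc
lower in MARWI-IP, 2: Ttaagtgacgataaagtgtgtctgagg
lower in MARWI-IP, 3: Ttgtgtatctttctgggttcctcatcc
lower in MARWI-IP, 4: Cattctgaaagaatatgtgtggaaaa
lower in MARWI-IP, 5: Gcccggatagctcagtcggtagagca
lower in MARWI-IP, 6: Attacttgatgacaataaaagatctgat

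Tagatacacaggattggagcttcccttc had 20307 reads in MARWI-IP, against 1 in total small RNA, a ratio of 2856 with an interval from 512 to 112800. Gattaaatgtcctgtcctctgagcaaat had 9975 MARWI-IP and 3 total reads (ratio 468, 160 to 2268), and Gatttctacgtctaactctgtcttctct had 3466 MARWI-IP and 1 total read. Gattactttctgatgtcagaactcaga had 2604 reads in MARWI-IP, against 0 in total small RNA, at least 122-fold higher when 3 reads are taken as the most that 0 observed reads allow. Tgatggtaattggaagagcatcttgggt starts 1 base inside the parent of MARWI-IP leader A and had 2855 MARWI-IP and 1 total read. Tggatgatgtcttgaacctgttggaga had 3440 MARWI-IP and 4 total reads. The last of these was present in total small RNA at greater length, since its 29 or 30 nt parent had 1468 MARWI-IP and 89 total reads.

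At the other end, Gacaaagacgtgcccggcagacctgccc had 0 MARWI-IP and 735 total reads, at least 1742-fold lower on the same limit of 3 reads. Attacttgatgacaataaaagatctgat had 0 MARWI-IP and 344 total reads, at least 815-fold lower on that limit. Ttaagtgacgataaagtgtgtctgagg had 2 and 825 reads in MARWI-IP and total small RNA, Cattctgaaagaatatgtgtggaaaa had 5 and 947, and Ttgtgtatctttctgggttcctcatcc had 1 and 371. Gcccggatagctcagtcggtagagca, which has the letters known as the 5′ part of a human lysine tRNA, had 2 MARWI-IP and 338 total reads. Its neighbour with the single substitution A7C, counted from the 5′ end, had 11 MARWI-IP and 77 total reads. For 9 of the other 11 sequences, neither table held a 26 to 28 nt sequence that differed from them by 1 base at the same length.

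Total leader C and the last sequence listed as lower in MARWI-IP carried the motifs of box C/D small nucleolar RNAs, which guide methylation of ribosomal RNA. The letters TGATGA (the core of box C) within the first 12 bases and CTGA (box D) within the last 8 bases were sought on the strand as read, where these windows cannot overlap. This search was prompted by those sequences, so its result is a description only. Both motifs were in 0.0297% of all distinct MARWI-IP and 0.0717% of all distinct total sequences of 26 to 28 nt. Examples with different starts are shown with both motifs in capitals.
box motifs 1: acgggTGATGAgaactggagtCTGAgc
box motifs 2: ttactTGATGAcaataaaagatCTGAta
box motifs 3: ctgaaTGATGAtctcccactaaCTGAgc
box motifs 4: gttcatTGATGAgagcattgttCTGAgc
box motifs 5: agtaaTGATGAatgccaaccgctCTGAt

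Reads with both motifs were 0.0193% of the 26 to 28 nt reads of MARWI-IP (0.0187% to 0.0199%) and 0.673% of those of total small RNA (0.664% to 0.682%). The sequence acgggTGATGAgaactggagtCTGAgc had 303 MARWI-IP and 7357 total reads, ttactTGATGAcaataaaagatCTGAta had 24 and 3646, and ctgaaTGATGAtctcccactaaCTGAgc had 173 and 732 in MARWI-IP and total small RNA. With fewer reads, gttcatTGATGAgagcattgttCTGAgc had 4 MARWI-IP and 452 total reads and agtaaTGATGAatgccaaccgctCTGAt had 10 MARWI-IP and 444. The motifs also occurred in a sequence with a higher share in MARWI-IP, TGATGAcataatgagcctcCTGAcatt, with 426 MARWI-IP and 30 total reads, a ratio of 2.00. Reads of this kind with a first U were 71.8% in MARWI-IP, against 32.1% in total small RNA.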

How the data were processed

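The authors deposited a table of raw read counts for each small RNA library, 1 row per different sequence, without genome positions. Per the labels' protocols, small RNA was gel-purified for the total library, MARWI was precipitated from testis lysate, and NEBNext reagents were used. Bowtie, TopHat and Cufflinks are listed, without version or role, per the submitters' processing notes. Read trimming, mapping settings and genome build: not given in the sources used here. MARWI-IP lists 24 to 33 nt and total small RNA 20 to 51 nt, so values are shares of 26 to 28 nt reads, or of 24 to 33 nt reads where stated. Of the 1000 most abundant 26 to 28 nt sequences, 824 (MARWI-IP) and 849 (total) had no sequence of their length 1 base away.

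Shares have exact (Clopper-Pearson) 95% intervals, and ratios exact intervals from the binomial of both counts. Thinning drew reads at random without replacement. Class assignment, later starts and ratios were tested on simulated tables. These had no read errors and hardly any sequences read once, so they do not show how such sequences are put into classes. The members and lists were chosen with earlier results of these data known. Named sequences followed a written rule: the leading 10 of each table, the 6 highest and 6 lowest ratios at 100 reads per 1000000 or more, the leading ones of each class and the leading short ends, with 1 sequence not reported here. Names of tRNAs and of box motifs come from general knowledge. No table of mature miRNAs or genome was used here, so miRNAs and loci were not analysed here. Alternatives were other lengths, depths, counting rules and thresholds. Scripts ran in Python 3.11.15 with scipy 1.17.1, pandas 2.3.3, matplotlib 3.10.9 and numpy 2.4.6.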

Additional observations from a re-analysis of the deposited data

How the results depend on the processing

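Differences are MARWI-IP minus total small RNA, in percentage points. First U (3.86) turned to -5.38 with each distinct sequence counted once, and was 1.80 without sequences read once, 3.61 without the 10 most abundant sequences of either table, and 3.09, 4.23 and 3.61 at 26, 27 and 28 nt. A at position 10 (1.42) turned to -0.48 over distinct sequences, and was 1.94, 0.81, 3.76, 2.39 and 0.41 under the other settings in that order. Last C (-4.16) was -4.46, -4.44, -4.45, -1.85, -3.05 and -5.01 in that order. Shortened forms (23.1) were 14.6, 17.0, 22.4, 33.4, 32.8 and 17.1 in that order, 18.9 with MARWI-IP thinned, 16.5 with any parent, 14.1 with a parent of 5 times the reads, 22.5 with parents of 29 to 33 nt, 19.6 with parents from both tables and 11.5, an alternative chosen after seeing the data, with both length classes matched. The share of the top 1000 sequences (5.74) was 7.24 over 5′ ends of 20 nt. The share of reads in shared sequences (6.402) turned to -7.82 without sequences read once, and was 16.4 thinned and 6.84 over 5′ ends. Short ends (-2.24) were at -3.01 with MARWI-IP thinned.

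Sequences 4-fold higher in MARWI-IP (1503) were 5509 of 32173 at 5 reads per 1000000 and 237 of 1314 at 100, and 3751 at 2-fold. Those lower (1534) were 6187 of 32173 and 280 of 1314 at these minimums. With filter and share both on 24 to 33 nt reads, also chosen after seeing the data, 165 of 1403 were higher and 365 lower. With 1000 reads in both libraries, 56.8% of 1017 ends had a higher short share in MARWI-IP, and 56.0% of 150 short ends of total small RNA were short in MARWI-IP. Of 57 alternatives, 13 stayed within counting error or 1.5 times, 41 moved further and 3 reversed. Counts of sequences past a fold and shares of the same ends have no sign, so these could not be called reversed. The cause was not tested. No paired analysis was possible because each library is 1 column. Leaving out a replicate was not possible for the same reason. Depth limits how sequences are put into classes.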
